A study of Mus musculus with 4 samples.

Results

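The carbonic anhydrases were examined by bulk RNA sequencing of cerebellar tissue enriched in granule cells (GCE). The genes were *Car2*, *Car4*, *Car5b*, *Car7*, *Car8*, *Car10*, *Car11*, *Car12*, *Car13* and *Car14*, chosen by their NCBI gene identifiers, and they are 10 of the 24532 genes with a value in each library. Another 6 genes of the family were kept apart from these 10 and are described after them. Each of 2 wild-type (WT) and 2 *Kdm3b*+/- mice gave 1 library. All 4 were adult males, and the WT mice were littermates of the mutants. The *Kdm3b*+/- mice carry a gene-trap vector between exons of 1 *Kdm3b* allele in every cell. The line comes from 1 embryonic stem cell line and was backcrossed to C57Bl/6N and then to C57Bl/6J. The vermis was sliced and the granule-cell-enriched part was cut out by hand, so the samples are mixtures of cell types.

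Carbonic anhydrases interconvert carbon dioxide and water with bicarbonate and a proton, and a zinc ion held by histidines carries the reaction. Family members differ in where they work: in the cytosol, in mitochondria, or at the outer face of the membrane. A few, called carbonic anhydrase-related proteins, have lost the reaction and serve as binding partners of other proteins. In the brain, *Car2* is best known from oligodendrocytes, and it is also abundant in red blood cells and in the choroid plexus. *Car8* is a well-known product of Purkinje cells, and its loss causes ataxia in mice.

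The coding sequence around the zinc-binding histidines is shown for *Car2*, for *Car4*, the other abundant enzyme, and for the related proteins *Car10* and *Car11*, because these runs differ at the zinc site between the enzymes and these 2 related proteins. Each run is 102 bases of spliced coding sequence from the GENCODE annotation of GRCm38, written along the coding strand. Capitals mark the codons that align with the 3 zinc-binding histidine codons of *Car2*.
Car2: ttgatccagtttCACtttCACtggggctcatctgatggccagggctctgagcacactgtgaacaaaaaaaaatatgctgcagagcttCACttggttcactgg
Car4: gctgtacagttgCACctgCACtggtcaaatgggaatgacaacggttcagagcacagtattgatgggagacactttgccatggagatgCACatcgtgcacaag
Car10: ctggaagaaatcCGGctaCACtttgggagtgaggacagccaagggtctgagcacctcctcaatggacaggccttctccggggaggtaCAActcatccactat
Car11: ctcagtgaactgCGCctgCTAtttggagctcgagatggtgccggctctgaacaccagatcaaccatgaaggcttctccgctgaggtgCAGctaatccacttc
The *Car2* run covers parts of exons 3 and 4 (chr3:14895057-14895552, forward strand), and the *Car4* run covers parts of exons 4 and 5 (chr11:84964155-84964365, forward strand). For *Car10* it lies in exons 4 and 5 (chr11:93490594-93578683, forward strand), and likewise for *Car11* (chr7:45702536-45702850, forward strand). *Car2* and *Car4* had histidine codons at all 3 places, as did each of the 7 enzymes. *Car10* has arginine, histidine and glutamine, and *Car11* has arginine, leucine and glutamine, which leaves 1 and 0 histidines. Over the protein positions that aligned with *Car2* without a gap, *Car13* (56.9% identical), *Car7* (55.0%) and *Car5b* (51.5%) were closest to it. *Car12* (37.5%) and *Car14* (37.2%) followed. *Car4* (33.3%), *Car11* (33.3%) and *Car10* (33.2%) were the most distant of the 9 genes compared.

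Each library held between 4.92 and 6.69 gigabases of aligned sequence, which was computed from the deposited coverage and FPKM. TPM, the abundance of transcripts, is scaled to transcript length and to the library total, so it allows comparison between genes. *Kdm3b* itself showed a TPM of 9.10 and 10.996 in WT and of 8.30 and 7.90 in mutant libraries, with a log2 fold change of -0.27 (SE 0.17, adjusted p = 0.424). Its TPM counts all exons of the gene, those upstream of the vector included. Granule cell markers were abundant (*Gabra6* TPM between 984 and 1200), and markers of oligodendrocytes and Purkinje cells were present in all 4 libraries.

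Transcript levels of the 10 genes spanned more than 3 orders of magnitude. *Car4* and *Car2* were the most abundant, at the 98.8th and the 98.3rd percentile of mean TPM among tested genes. *Car10*, *Car11*, *Car8*, *Car14* and *Car7* followed in that order, and *Car13*, *Car5b* and *Car12* were low. *Car4* lay above *Car2* in every library. *Car8* and *Car14* changed places between libraries, with *Car8* higher in WT mouse 1 and *Kdm3b*+/- mouse 1, so their order was not beyond the spread. The ranges of *Car8* and *Car7* also touched, as did those of *Car5b* and *Car12*.

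**Figure D1:**
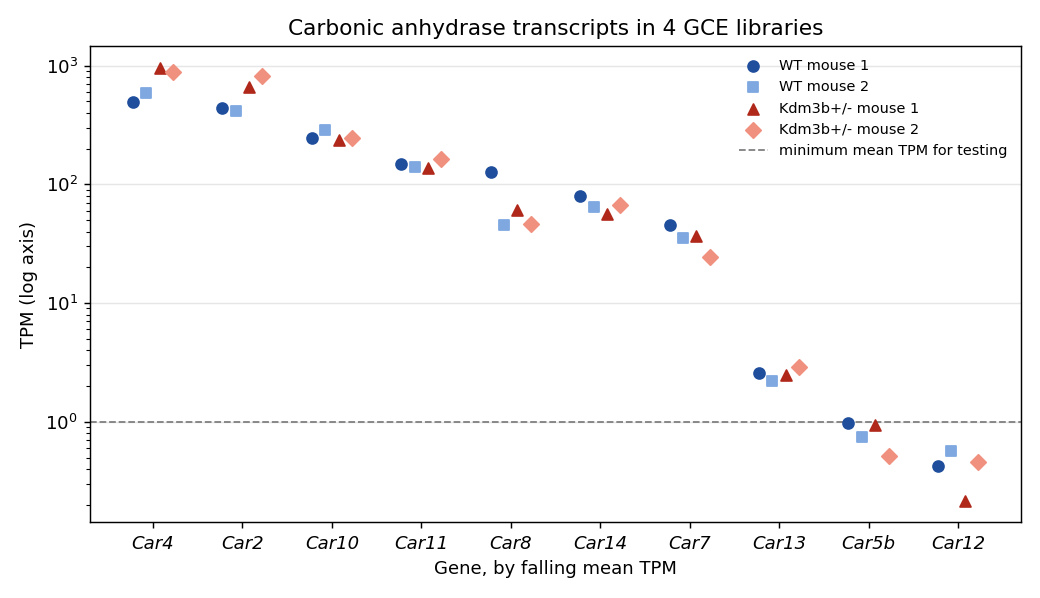
TPM on a log axis of the 10 carbonic anhydrase genes, ordered by falling mean TPM, with 1 point per library. The *Kdm3b*+/- points of *Car4* and *Car2* lie above both WT points, and those of the other 8 genes do not separate upward. *Car5b* and *Car12* lie below the dashed line at a TPM of 1 in all libraries.

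To test whether the carbonic anhydrases differed between genotypes, log2(TPM + 1) was compared with limma over all 13652 genes whose TPM averaged 1 or more. Fold changes are given on this scale as *Kdm3b*+/- minus WT. A gene was called differentially expressed (DEX) when its Benjamini-Hochberg adjusted p was under 0.05 and it differed more than 1.2-fold. Of the 10 genes, 8 passed the minimum TPM. *Car4* was DEX and higher, and none was DEX and lower. Over all tested genes, 0.117% were DEX and higher and 0.344% were DEX and lower (16 and 47 genes), a split that became 29 and 40 under median-ratio scaling. An unadjusted p under 0.05 was reached by *Car4* and *Car2*, both higher, against 5.47% of all tested genes in that direction and 17.0% in either. The 2 groups did not overlap for these 2 genes and overlapped for the other 6, whereas 51.3% of all tested genes had groups that did not overlap. By their means, 4 of the 8 were higher and 4 were lower. Their median log2 fold change was -0.03, beside -0.07 for all tested genes.

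**Figure D2:**
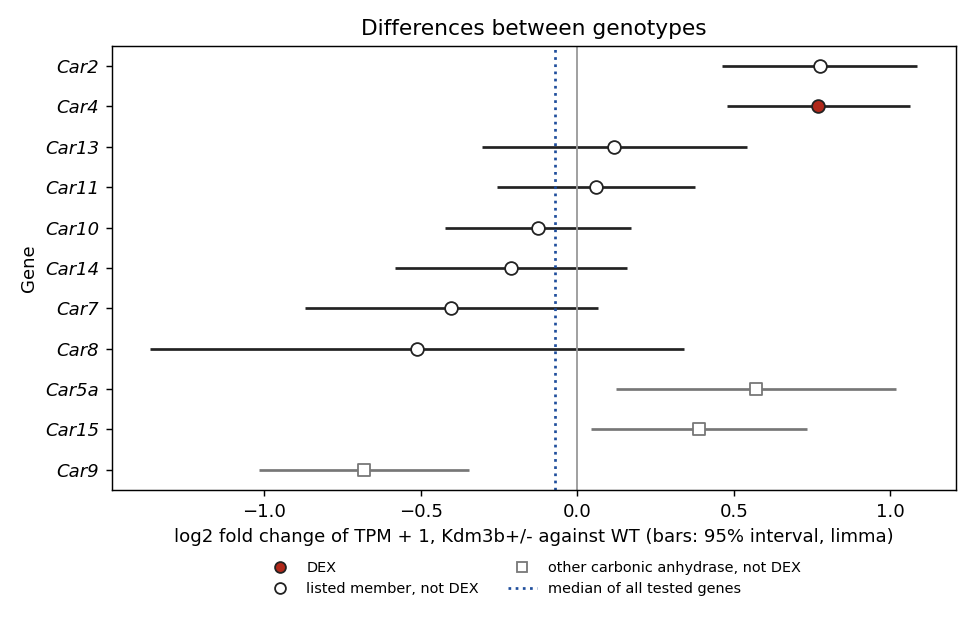
Log2 fold change of TPM + 1 in *Kdm3b*+/- against WT mice for the 8 tested carbonic anhydrases (circles) and 3 other family members (squares), with 95% intervals from limma. *Car4* is filled as DEX, the interval of *Car2* also lies above 0, and the intervals of the other 6 listed genes include 0.

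Among the cytosolic enzymes, *Car2* (NCBI gene 12349; chr3:14886426-14900770, forward strand) is the fast and widespread form. Its TPM was 439 and 418 in WT and 655 and 821 in *Kdm3b*+/- mice. Both mutant libraries were above both WT libraries, and the mutant pair lay farther apart (428 ± 15.03 against 738 ± 118, SD, n = 2). The fold change was 1.72 between mean TPM, with a log2 fold change of 0.77 (SE 0.14, 95% interval 0.46 to 1.09). The adjusted p was 0.0583, which missed the threshold. With a library left out, the log2 fold change lay between 0.61 and 0.94. In 10 of 15 alternatives *Car2* stayed short of DEX. Among these were FPKM (adjusted p = 0.0781), quantile normalization (0.0831), eBayes without the trend (0.131) and no minimum TPM (0.481). *Car2* was DEX in the other 5, among them a minimum TPM of 5 (0.0347), median-ratio scaling (0.0460) and robust eBayes (0.0292).

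*Car7* is a cytosolic enzyme of neurons that supplies bicarbonate for GABA responses. It lies at chr8:104534700-104550343 on the forward strand (NCBI gene 12354). Its TPM was 45.4 and 35.2 in WT and 36.5 and 24.7 in *Kdm3b*+/- mice. The groups overlapped, with 1 mutant library below both WT libraries. The log2 fold change was -0.40 (95% interval -0.87 to 0.07, adjusted p = 0.350). *Car7* differed from the other 9 genes in its deposited values: its FPKM was between 2.56 and 2.73 times what its coverage would give, and that ratio was 1 for the others. *Car13* is a cytosolic enzyme close to *Car2* in sequence and position (NCBI gene 71934; chr3:14641727-14663002, forward strand). Its TPM of 2.58 and 2.205 in WT and 2.46 and 2.91 in *Kdm3b*+/- mice was less than a hundredth of that of *Car2*. The groups overlapped, and the log2 fold change was 0.12 (95% interval -0.30 to 0.54, adjusted p = 0.776).

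At the membrane, *Car4* (NCBI gene 12351; chr11:84957754-84966054, forward strand) is held to the outer face by a lipid anchor and is known from brain capillaries. Its TPM was 495 and 589 in WT and 961 and 885 in *Kdm3b*+/- mice. Both mutant libraries were above both WT libraries (542 ± 66.0 against 923 ± 53.6, SD, n = 2). *Car4* rose 1.70-fold between mean TPM, with a log2 fold change of 0.77 (SE 0.13, 95% interval 0.48 to 1.06, adjusted p = 0.0459). This call was close to the threshold. It ended without WT mouse 1 (log2 fold change 0.65, adjusted p = 0.0873) and without WT mouse 2 (0.89, adjusted p = 0.0918), and with FPKM, without the minimum TPM, with quantile normalization or without the trend. Over all alternatives the adjusted p of *Car4* ran from 0.00627 to 0.474.

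*Car14* spans the membrane with its active site outside and is found on neurons and glia. Its TPM was 80.1 and 63.8 in WT and 56.2 and 67.5 in *Kdm3b*+/- mice, so the groups overlapped. The log2 fold change was -0.21 (95% interval -0.58 to 0.16, adjusted p = 0.527). *Car14* (NCBI gene 23831; chr3:95897800-95904639, reverse strand) shares 793 bases with *Aph1a*, a subunit of gamma-secretase on the opposite strand. Whether strand was used in the counting is not given in the sources used here, and reads of the shared bases cannot be told apart without it. *Aph1a* had a TPM between 51.2 and 59.1 and a log2 fold change of 0.01 (adjusted p = 0.990). *Car12* is a second membrane-spanning enzyme (NCBI gene 76459; chr9:66713686-66766845, forward strand). Its TPM was 0.429 and 0.571 in WT and 0.217 and 0.460 in *Kdm3b*+/- mice, with a coverage between 0.575 and 1.41 reads per base. *Car5b*, the mitochondrial enzyme (NCBI gene 56078; chrX:163976822-164028010, reverse strand), had a TPM of 0.975 and 0.745 in WT and 0.934 and 0.512 in *Kdm3b*+/- mice. Both genes were below the minimum TPM and were not tested, and in both the groups overlapped.

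None of the 3 related proteins was DEX by limma or had an unadjusted p under 0.05. *Car10* encodes a secreted protein that binds neurexins at synapses (NCBI gene 72605; chr11:93099290-93601751, forward strand). Its TPM was 245 and 286 in WT and 238 and 247 in *Kdm3b*+/- mice, with a log2 fold change of -0.13 (95% interval -0.42 to 0.17, adjusted p = 0.648). *Car11*, its closest relative (NCBI gene 12348; chr7:45699967-45704661, forward strand), had a TPM of 148 and 140 in WT and 137 and 164 in *Kdm3b*+/- mice. The log2 fold change of *Car11* was 0.06 (95% interval -0.26 to 0.37, adjusted p = 0.856), and it was -0.07 without *Kdm3b*+/- mouse 2. The groups overlapped for both genes, and both intervals end below the log2 fold change of 0.46 at the lower bound of *Car2*. So do the intervals of *Car7*, *Car8* and *Car14*, while that of *Car13* reaches 0.54.

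*Car8* binds the inositol trisphosphate receptor of Purkinje cells (NCBI gene 12319; chr4:8141493-8239041, reverse strand). Its TPM was 126 and 45.1 in WT and 60.2 and 46.0 in *Kdm3b*+/- mice. WT mouse 1 stood apart, and the other 3 libraries were close together. The log2 fold change was -0.51 (SE 0.38, 95% interval -1.36 to 0.34, adjusted p = 0.507), and it was 0.22 (adjusted p = 0.493) without WT mouse 1. The summed Purkinje cell markers ranked the 4 libraries in the same order as *Car8*. Their TPM summed over 10 genes was 1592 and 704 in WT and 898 and 736 in *Kdm3b*+/- mice, and none of the 10 was at 0 in any library. The most abundant, *Pcp4*, a calmodulin-binding peptide, had 403 and 155 against 254 and 196. *Car8* stood at 7.89% and 6.41% of the marker sum in WT and 6.70% and 6.25% in *Kdm3b*+/- mice, a narrower range than that of its TPM. All 10 markers had a lower mean in *Kdm3b*+/- mice, while the sum in WT mouse 2 (704) was below both mutant sums. Both mutant libraries were below both WT libraries for 4 of the markers, beside 32.0% of all tested genes. The markers had a median log2 fold change of -0.48, and 0 were DEX by limma. An unadjusted p under 0.05 was reached by 3, all lower, beside 11.5% of all tested genes. In bulk tissue, fewer cells of a type and less RNA per cell cannot be told apart.

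**Figure D3:**
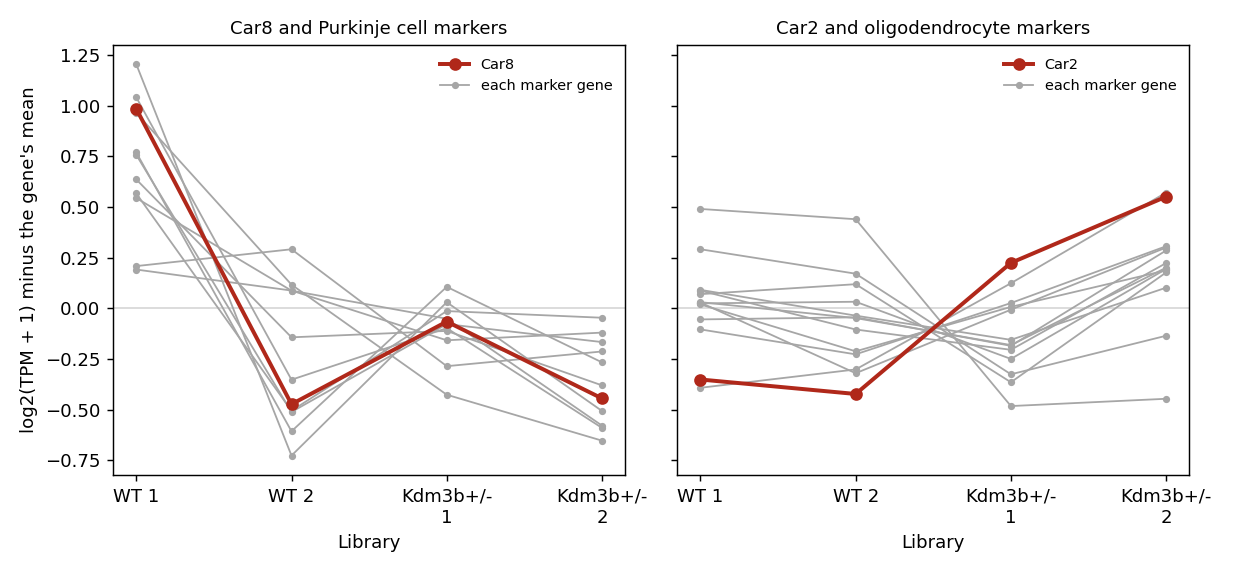
Log2(TPM + 1) minus the mean of each gene over the 4 libraries, for *Car8* with 10 Purkinje cell markers (left) and *Car2* with 12 oligodendrocyte markers (right). Lines join the values of 1 gene and imply no order of libraries. *Car8* is highest in WT mouse 1 together with most Purkinje markers, and *Car2* is higher in both *Kdm3b*+/- libraries while the oligodendrocyte markers go both ways.

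Markers of the cells in which *Car2* and *Car4* are known were set beside them. Oligodendrocyte markers had a summed TPM of 18158 and 16604 in WT and 15354 and 18364 in *Kdm3b*+/- mice, and the groups overlapped. Of the 12 markers, none was at 0 in any library. By limma 0 were DEX and higher and 1 was DEX and lower, beside 0.117% and 0.344% of all tested genes. An unadjusted p under 0.05 was reached by 1 in the higher and 2 in the lower direction, beside 5.47% and 11.5% of all tested genes. By their means 7 were higher and 5 lower, with a median log2 fold change of 0.02. The gene highest by this measure, *Opalin*, a myelin membrane protein, had 82.9 and 88.3 in WT and 119 and 163 in *Kdm3b*+/- mice (0.69, adjusted p = 0.128). The DEX gene was *Mobp*, a myelin protein, which fell from 925 and 893 to 471 and 482 (log2 fold change -0.93, adjusted p = 0.0133). It was no longer DEX without WT mouse 1 (adjusted p = 0.0694) or WT mouse 2 (adjusted p = 0.0711). *Mbp*, the most abundant, had a TPM of 12484 and 11429 against 10521 and 12577, with a log2 fold change of -0.05 (adjusted p = 0.836). Relative to the oligodendrocyte sum, *Car2* stood at 2.42% and 2.52% in WT and at 4.26% and 4.47% in *Kdm3b*+/- mice. *Mbp* made up most of this sum, so the ratio, higher in both mutant libraries, mainly sets *Car2* against *Mbp*. The coverage of *Mbp* in WT mouse 1 was 3185 reads per base at a TPM of 12484, against 974 at 439 for *Car2*.

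Astrocyte and Bergmann glia markers had a summed TPM of 797 and 797 in WT and 694 and 762 in *Kdm3b*+/- mice. This sum was lower in both mutant libraries. Of the 9 markers, 5 lay lower in both mutant libraries and 2 lay higher, beside 32.0% and 19.2% of all tested genes. Before adjustment, the limma p fell below 0.05 for 4 falling and 2 rising markers, beside 11.5% and 5.47% of all tested genes. Of these 9 markers, 2 were DEX and higher, and none was DEX and lower, beside 0.117% and 0.344% of all tested genes. *Aqp4*, the astrocyte water channel, rose from 59.2 and 82.3 to 150 and 152 (log2 fold change 1.10, adjusted p = 0.0329), and *Fabp7*, a lipid carrier of radial and Bergmann glia, rose from 16.5 and 16.2 to 40.5 and 56.4 (1.49, adjusted p = 0.0133). Without WT mouse 1 neither was DEX (adjusted p = 0.0723 and 0.0694), and without WT mouse 2 *Fabp7* was not (adjusted p = 0.0795). The median log2 fold change of the list was -0.39, and its most abundant gene, the gap junction gene *Gjb6*, had 267 and 257 against 191 and 158 (adjusted p = 0.125). Red cell markers summed to 1765 and 1142 in WT and 1928 and 1353 in *Kdm3b*+/- mice, and this overlap rested on *Hbb-bs* in WT mouse 1. *Hbb-bs*, a beta-globin gene with near-identical copies, had a TPM of 506 there and at most 8.08 in the other libraries. Without it the sum of the other 4 was 1259 and 1134 in WT and 1928 and 1353 in *Kdm3b*+/- mice, so both mutant libraries were higher, as they were for *Car2*. *Car2* stood at 34.9% and 36.8% of this sum in WT and 34.0% and 60.7% in *Kdm3b*+/- mice, and these ratios overlapped. The groups were apart and higher for the globin genes *Hba-a1*, *Hba-a2* and *Hbb-bt*, beside 19.2% of all tested genes. *Alas2* overlapped (11.3 and 12.98 against 12.9 and 11.4). *Hba-a1* and *Hba-a2* have nearly the same coordinates, so they are not taken as separate observations. By limma 0 of the 5 red cell markers were DEX. An unadjusted p under 0.05 was reached by 3 in the higher and 1 in the lower direction (5.47% and 11.5% of all tested genes). *Hba-a2* led them at 1057 and 910 against 1616 and 1079. In the choroid plexus list, *Ttr*, its defining gene, was at 0 in WT mouse 2 and at most 1.28 in the other libraries, and *Folr1* was at 0 in *Kdm3b*+/- mouse 1. The sum of that list lay between 28.6 and 33.3 and was mostly *Otx2*, a transcription factor (24.9 to 30.4).

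Endothelial markers, for the cells in which *Car4* is known, summed to 360 and 325 in WT and 329 and 342 in *Kdm3b*+/- mice. The groups overlapped, and none of the markers was at 0 in any library. Of 9 tested, 0 were DEX by limma. An unadjusted p under 0.05 was reached by 1, which was lower, beside 11.5% of all tested genes. *Ly6c1* was the most abundant, with a TPM between 144 and 197. *Car4* stood at 138% and 181% of this sum in WT and 292% and 258% in *Kdm3b*+/- mice. Granule cell markers summed to 3384 and 4143 against 3583 and 3505, and *Car4* stood at 14.6% and 14.2% against 26.8% and 25.2% of that sum. Of the remaining lists, microglia (85.4 to 105, led by *C1qa*) overlapped between groups. The interneuron list (178 and 129 against 106 and 105, led by *Gad1*) was lower in both mutant libraries. So was the sum of the fibroblast list (42.3 and 35.4 against 30.1 and 30.0), most of which was *Dcn* (36.1 and 28.6 against 23.4 and 22.2), a matrix proteoglycan. *Col1a2* (3.88 and 4.47 against 1.87 and 3.28, limma adjusted p = 0.261) and the untested *Col1a1* (0.617 and 0.831 against 0.540 and 0.596) were also lower in both mutant libraries. Within that list *Lum*, another matrix proteoglycan, lay the other way at 1.29 and 0.984 in WT and 3.40 and 2.86 in *Kdm3b*+/- mice (log2 fold change 0.95, adjusted p = 0.0997), and the untested *Col3a1* was also higher in both mutant libraries. Of all 69 markers tested, 3 were DEX, beside 0.461% of all tested genes. The part of cell type make-up in the values of *Car2* and *Car4* was not tested beyond these sums.

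To set *Car2* against its paralogs within a library, TPM was summed over the 10 genes. The sum was 1582 and 1580 in WT and 2146 and 2260 in *Kdm3b*+/- mice. Without *Car2* and *Car4* it was 648 and 574 in WT and 531 and 554 in *Kdm3b*+/- mice, so the higher total came from these 2 genes. *Car2* took 27.7% and 26.4% of the sum in WT and 30.5% and 36.3% in *Kdm3b*+/- mice, a difference of 6.34 percentage points. *Car4* took 31.3% and 37.3% against 44.8% and 39.2%. Together they held 59.0% and 63.7% in WT and 75.3% and 75.5% in *Kdm3b*+/- mice. The groups did not overlap for any of these shares, and the exact two-sided permutation p was 0.333, the smallest that 2 against 2 libraries can give. Shares of the same total are tied to each other, and that of every other member was lower in both mutant libraries.

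**Figure D4:**
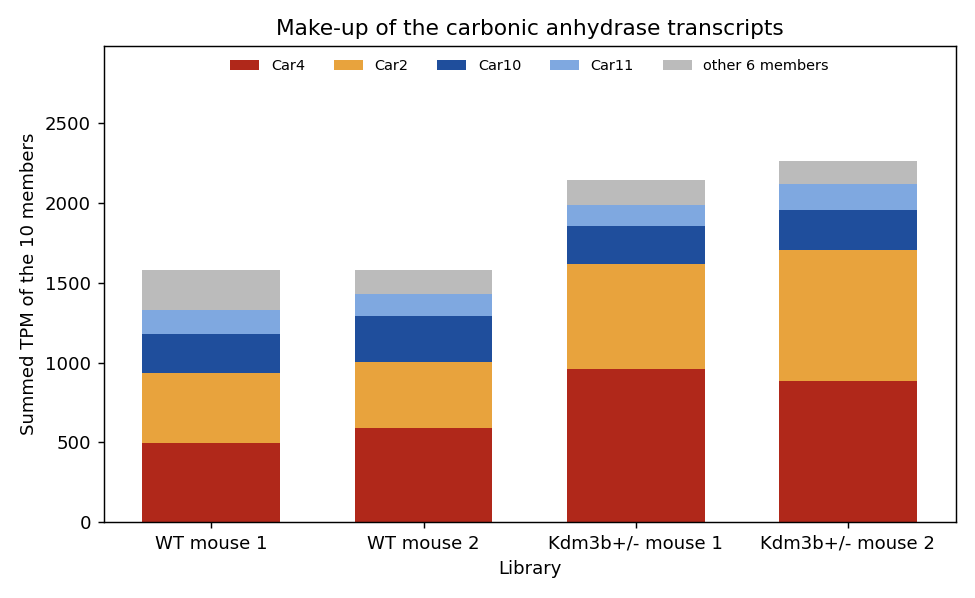
Summed TPM of the 10 carbonic anhydrase genes in each library, divided by gene. The *Car4* and *Car2* blocks are taller in both *Kdm3b*+/- libraries, and the sum of the other 8 genes is 648 and 574 in WT and 531 and 554 in *Kdm3b*+/- mice.

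The 3 related proteins together had a TPM of 519 and 471 in WT and 435 and 458 in *Kdm3b*+/- mice, while the 7 enzymes had 1064 and 1109 against 1711 and 1802. The share of the related proteins was 32.8% and 29.8% in WT and 20.3% and 20.3% in *Kdm3b*+/- mice. When only the 7 enzymes were summed, *Car2* took 41.3% and 37.7% in WT and 38.2% and 45.6% in *Kdm3b*+/- mice. These groups overlapped, with a difference of 2.45 percentage points (exact two-sided permutation p = 0.667). The ratio of *Car2* to *Car4* overlapped as well, at 0.886 and 0.709 in WT and 0.681 and 0.928 in *Kdm3b*+/- mice. Ratios of *Car2* to the members all share its TPM, so they are not separate observations. Against every other member the ratio was higher in both mutant libraries. It was 2.96 and 2.99 against 4.78 and 5.002 for *Car11*, and 1.79 and 1.46 against 2.76 and 3.32 for *Car10*. For *Car14* it was 5.48 and 6.55 against 11.6 and 12.2, and for *Car7* 9.66 and 11.9 against 17.9 and 33.3. *Car8* gave 3.49 and 9.26 against 10.9 and 17.8, where the WT libraries differed most.

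The family holds 6 further genes, of which 3 passed the minimum TPM and 0 were DEX by limma, while 2 had an unadjusted p under 0.05 in the higher and 1 in the lower direction (5.47% and 11.5% of all tested genes). *Car9*, a membrane enzyme induced by low oxygen, had a TPM of 27.7 and 28.5 in WT and 16.3 and 18.1 in *Kdm3b*+/- mice. Both mutant libraries were below both WT libraries, with a log2 fold change of -0.68 (SE 0.15, adjusted p = 0.107). *Car15*, a lipid-anchored membrane enzyme, had 16.8 and 16.7 against 23.8 and 20.7 (log2 fold change 0.39, adjusted p = 0.254). *Car5a*, a mitochondrial enzyme of liver, had 0.795 and 0.760 against 1.46 and 1.83 (0.57, adjusted p = 0.220). Both WT values of *Car5a* were below the minimum TPM of 1, so it passed only through its mutant libraries. Its place among the genes counted as higher or apart is favoured by that filter. The groups did not overlap for the 3 tested genes, beside 51.3% of all tested genes. *Car1*, a red cell enzyme, was at 0 in WT mouse 1 and *Kdm3b*+/- mouse 2 and at 0.239 and 0.765 in the other libraries. *Car3*, a muscle enzyme, lay between 0.238 and 0.460, and *Car6*, a salivary enzyme, was at 0 in 3 libraries.

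*Car2* lies in a cluster of carbonic anhydrase genes on chromosome 3. Upstream of it are *Car3* (14052 bases away), *Car1* (78060 bases) and *Car13* (223423 bases). The nearest gene downstream, *A930001A20Rik*, is 70430 bases away and had a TPM between 0.0836 and 0.537. Of these neighbours only *Car13* passed the minimum TPM, and its groups overlapped.

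The genes whose values over the 4 libraries were most like those of *Car2* were found by the Euclidean distance between centred log2(TPM + 1) values, as a description. *Klk6*, a secreted protease of oligodendrocytes, was nearest (distance 0.0713), with a TPM of 85.8 and 77.2 in WT and 123 and 161 in *Kdm3b*+/- mice. *Qdpr*, which recycles tetrahydrobiopterin, was next (distance 0.107), with 615 and 575 against 970 and 1099. *Cnmd*, chondromodulin, followed (distance 0.117), with 11.7 and 12.03 against 17.7 and 22.0. *Qdpr* was DEX (adjusted p = 0.0329), whereas *Klk6* (adjusted p = 0.0985) and *Cnmd* (adjusted p = 0.127) were not. *Qdpr* was not DEX without WT mouse 1 (adjusted p = 0.0832) or WT mouse 2 (adjusted p = 0.155). *Car4* was the 186th nearest, at a distance of 0.388.

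Transporters and enzymes that handle bicarbonate and protons were examined beside the family. The list also held 5 cation-chloride cotransporters, 4 of them tested, which carry neither. Of 39 genes listed, 27 were tested and 0 were DEX by limma, the smallest adjusted p being 0.228. An unadjusted p under 0.05 was reached by 0 in the higher and 3 in the lower direction, against 5.47% and 11.5% of all tested genes. These were *Slc9a5*, *Slc9a8* and *Slc4a2*, which are sodium-proton and chloride-bicarbonate exchangers. *Slc9a5* had the lowest log2 fold change (-0.57, adjusted p = 0.272), with a TPM of 19.4 and 29.6 in WT against 12.9 and 19.4 in *Kdm3b*+/- mice. *Slc9a8* had 22.7 and 26.9 against 15.2 and 19.7 (-0.49, adjusted p = 0.228), and *Slc4a2* had 19.95 and 25.4 against 13.9 and 19.0 (-0.45, adjusted p = 0.282). *Slc4a4*, the sodium-bicarbonate cotransporter of astrocytes, had the highest (0.28, adjusted p = 0.341), with 30.1 and 32.3 against 38.0 and 38.3. The groups did not overlap for 4 genes in the higher and 11 in the lower direction, beside 19.2% and 32.0% of all tested genes. The 7 tested enzymes that use bicarbonate, among them pyruvate carboxylase, all had a lower mean in *Kdm3b*+/- mice. The median of their log2 fold changes was -0.16, and 0 were DEX or had an unadjusted p under 0.05. Over the 27 genes the median was -0.10, beside -0.07 for all tested genes.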

How the data were processed

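RNA of GCE tissue from 2 WT and 2 *Kdm3b*+/- mice was compared, grouped by the titles in the labels. The authors trimmed reads, aligned them with STAR and estimated abundance with StringTie. They deposited coverage (a signal of mean reads per base, not normalized), FPKM (scaled by the authors to length and mapped fragments) and TPM (scaled by the authors to length and a total of 1000000) per gene. Tool versions, genome build and annotation are not given in the sources used here. RefSeq for GRCm38 gave the same chromosome for 99.5% of identifiers and a start within 1 kb for 90.4%. Read counts were not recovered, so a count test was not used. Aligned bases came from the ratio of coverage to FPKM, which between 67.6% and 68.1% of entries shared. No counting interval is given, since abundance was estimated on transcripts.

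TPM was summed over entries with the same identifier (220 identifiers had several). Symbols were found for 24462 of 24532 identifiers. Genes whose TPM averaged 1 or more were tested on log2(TPM + 1) with limma version 3.58.1 (lmFit, eBayes with trend) run in R version 4.3.3. Genotype was alone in the model. The Benjamini-Hochberg adjustment ran over 13652 genes. A gene was called DEX below an adjusted p of 0.05 when it differed more than 1.2-fold. Shares within a library were compared by exact two-sided permutation, whose smallest p is 0.333. Each library is a separate mouse. The script was tested on simulated data.

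Members, lists and tests were chosen with earlier results of these data known. The genes named were the 10 members, the other carbonic anhydrases, the extremes of the bicarbonate and proton list with any that was DEX or had groups apart and an unadjusted p under 0.05, the most abundant and any DEX gene of each marker list, genes overlapping a member, neighbours of *Car2*, and the 3 genes nearest to *Car2* in pattern. *Ttr* and *Folr1* (at 0 in a library), *Hbb-bs* (1 library apart) and the red cell sum without it, *Hba-a1*, *Hbb-bt*, *Alas2*, *Opalin*, *Lum*, *Col1a1*, *Col1a2* and *Col3a1* were named after their values were seen. For 1 member the coding window is not reported here, and the others were read from GENCODE transcripts of GRCm38 and aligned to *Car2* as proteins with Biopython version 1.88. Alternatives were a pseudocount of 0.1, FPKM, no minimum TPM, a minimum of 5, quantile normalization, median-ratio scaling, removal of the 20 most abundant genes, the largest entry of an identifier alone, eBayes without trend, robust eBayes (statmod version 1.5.0), the replicate number as a block, the adjusted p alone, and each library left out in turn, with the lone library assumed to vary like the other group.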

Additional observations from a re-analysis of the deposited data

How the results depend on the processing

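Of the 10 carbonic anhydrases, 1 was DEX as reported. The count was 0 with FPKM in place of TPM, without the minimum TPM, with quantile normalization and without the trend, and it was 2 (*Car2* and *Car4*) at a minimum TPM of 5, with median-ratio scaling, with robust eBayes and with the replicate block. With a library left out it ran from 0 to 2: it was 0 without WT mouse 1 or WT mouse 2, 2 without *Kdm3b*+/- mouse 1, and 1 without *Kdm3b*+/- mouse 2. The log2 fold change of *Car2* stayed above 0 in all 15 alternatives, of which 10 left *Car2* short of DEX. It passed the threshold at a minimum TPM of 5 (0.77, adjusted p = 0.0347), with median-ratio scaling (0.85, adjusted p = 0.0460), with robust eBayes (0.77, adjusted p = 0.0292) and with the replicate block (0.77, adjusted p = 0.00826), and with a library left out it lay between 0.61 and 0.94. Its share among the 10 genes differed by 6.34 percentage points, between 3.41 and 9.26 with a library left out, and by 2.45 among the enzymes only. *Car8* ran from -1.24 to 0.22 and *Car11* from -0.0708 to 0.19 with a library left out. For *Car7*, *Car10*, *Car13* and *Car14* the sign held in every alternative run, and none was DEX. Other carbonic anhydrases had 0 DEX genes and 1 (*Car9*, adjusted p = 0.0261) with the replicate block, and the bicarbonate and proton list had 0 and 1 (*Slc9a5*, adjusted p = 0.0480). The markers had 3 DEX genes, 0 without the minimum TPM, 1 without the trend, 15 with the replicate block, and between 1 (without WT mouse 1) and 7 (without *Kdm3b*+/- mouse 1) with a library left out. Over all genes, 63 were DEX. This count was 38 with FPKM, 2 without the minimum TPM, 37 without the trend, 92 with robust eBayes, 600 with the replicate block, and between 21 and 188 with a library left out. Same-numbered mice are different animals, and their deviations from the group means had a correlation across genes of 0.12 with only 2 pairs, so the numbers were not taken as pairs. Without the minimum TPM 24532 genes were tested in place of 13652. The cause of the other changes was not tested. With 2 mice per group, an effect that missed the threshold is not shown to be absent. Coverage under 2.5 reads per base limits *Car5b* and *Car12*.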
